A study of Mus musculus with 2 samples.

Results

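The 10 genes described here encode the shared and distinguishing subunits of the mTOR complexes (Mtor, Rptor, Rictor, Mlst8), the regulators upstream of mTORC1 (Tsc1, Tsc2, Rheb, Ddit4) and substrates of mTORC1 (Rps6kb1, Eif4ebp1). They were chosen by name, out of 23338 named genes, and all 10 were among the 13815 genes that reached 1 FPKM in at least 1 library and were compared. For each gene, the RefSeq transcripts and the transcript models of 300 nt or more that were assembled on the same strand over its exons were taken, and its level is the sum of their FPKM (a level in sequenced fragments, corrected for how long the transcript is and for the size of the library). The study sequenced poly(A) RNA of spermatogonial progenitor cells, the germ cells that maintain spermatogenesis, from mouse testes 8 days after birth. There were 2 libraries, 1 from Dnmt3l knockout mice and 1 from wild-type mice, both labelled C57BL/6. Dnmt3l encodes a partner of the de novo DNA methyltransferases that has no catalytic activity of its own, and the series title asks about its role in quiescence of these cells. Neither the number of animals per library nor any pooling is stated in the sources used here, nor is the Dnmt3l allele. Because each genotype has a single library, differences have no replicate check, no test was made, and all values describe these libraries.

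mTOR is a kinase that couples growth factors and nutrients to protein synthesis and cell growth. With RAPTOR (Rptor) and MLST8 it forms mTORC1, and with RICTOR and MLST8 it forms mTORC2. The TSC1-TSC2 complex switches off the small GTPase RHEB, which activates mTORC1. DDIT4, also called REDD1, restrains mTORC1 through the TSC complex, and in mouse spermatogonial progenitors the transcription factor PLZF (Zbtb16) is known to raise Ddit4 and so to limit mTORC1.

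The deleted gene, Dnmt3l, was listed at 0 in knockout cells with both deposited bounds at 0. In wild-type cells it had 1.67 FPKM with bounds of 0.79 and 2.68. Of 8 spermatogonial markers, 6 were below and 2 above an equal level in the knockout library, and their summed level was 949.1 FPKM in knockout cells and 1134.9 FPKM in wild-type cells. Markers of other testis cells were present in both libraries. The 8 Sertoli cell markers summed to 656.6 FPKM in knockout cells and 283.4 FPKM in wild-type cells, and all 8 were higher in the knockout library. Most of that sum was Clu, at 420.2 FPKM in knockout cells and 179.5 FPKM in wild-type cells. For Sox9 and Fshr the bounds, summed over the transcripts of each gene, overlapped between the libraries. The 6 Leydig cell markers summed to 135.7 and 60.5 FPKM in knockout and wild-type libraries, with 4 higher and Star listed at 0 in both. The 7 macrophage markers summed to 656.6 and 347.5 FPKM in knockout and wild-type libraries, with 6 higher and Cd68 listed at 0 in the knockout library. The 6 endothelial markers summed to 105.6 and 52.2 FPKM in knockout and wild-type libraries, and the 5 peritubular markers to 450.1 and 290.7 FPKM, with 4 of each higher. Over genes at 1 FPKM or more in both libraries, the median was itself above 0, at 0.21 on the log2 scale defined below. Of the spermatogonial markers, 2 of 8 lay above that median. So did 7 of 8 Sertoli, 4 of 5 compared Leydig, 6 of 7 macrophage, 4 of 6 endothelial and 4 of 5 peritubular markers. The genes of the mTOR pathway are also expressed in these other testis cells, and the part of these cells in the values below was not tested. In bulk RNA, fewer cells of a type and less RNA per cell cannot be told apart.

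The members lay between 7.31 and 80.2 FPKM in the knockout library and between 9.43 and 64.4 FPKM in the wild-type library. Differences are given as log2((knockout FPKM + 1)/(wild-type FPKM + 1)), and by this measure 4 members were above 0 and 6 below it. The median over the members was -0.10, against 0.22 over all genes compared. Only Mtor differed by at least 2-fold on summed gene level: 1 of 10 members was at least 2-fold higher, against a background of 7.66% of genes compared, and 0 were at least 2-fold lower, against 3.49%. The deposited bounds cover the estimate of a transcript within a library and not the spread between animals. For each gene they were summed over its transcripts and models, and such a sum is not an interval for the gene level. The summed bounds did not overlap for 7 members (Mtor, Tsc2 and Eif4ebp1 higher in the knockout library, and Rptor, Rictor, Mlst8 and Rps6kb1 lower). Over all genes compared, the bounds were apart with the knockout library higher for 35.4% and lower for 16.2%, so bounds apart were common. Among the members the bounds overlapped for Tsc1, Rheb and Ddit4. For Mtor, Tsc2, Rheb and Rptor the sign turned when RefSeq transcripts alone were summed, and the account of each gene below gives both values.

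**Figure D1:**
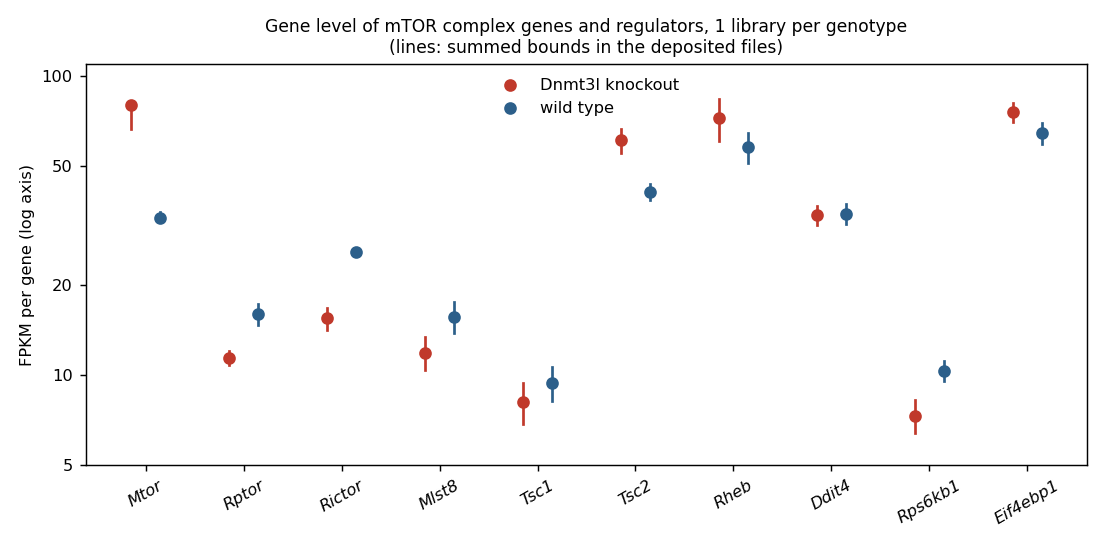
Summed FPKM per gene (vertical log axis) of the 10 members in the Dnmt3l knockout library (red, left) and the wild-type library (blue, right), with lines for the summed bounds in the deposited files. Mtor stands at 80.2 FPKM in knockout cells and 33.6 FPKM in wild-type cells, while Ddit4 has nearly the same level in both.

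In the knockout library Mtor had the highest level, with Eif4ebp1, Rheb and Tsc2 next, and each neighbour in this series of 4 overlapped the next in its bounds. Ddit4 and Rictor followed, each apart from its neighbours. Mlst8 and Rptor overlapped each other, as did the lowest pair, Tsc1 and Rps6kb1. In the wild-type library Eif4ebp1 and Rheb led with overlapping bounds, followed by Tsc2. Ddit4 and Mtor overlapped each other there, Rictor stood apart below them, and the pairs Rptor with Mlst8 and Rps6kb1 with Tsc1 overlapped. By gene sum Mtor was thus number 1 in the knockout library and number 5 in the wild-type library, but by the exon level, a mean over exon bases described below, it was number 5 in both.

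Mtor encodes the kinase that both complexes share, and on mm10 it spans chr4:148448582-148557685 on the plus strand with 58 exons in a RefSeq transcript of 8595 nt (positions of all genes below are on the same build). Its gene level was 80.2 FPKM (bounds 66.7 to 82.1) in the knockout library and 33.6 FPKM (bounds 32.5 to 35.1) in the wild-type library, a log2 ratio of 1.23. The higher sum did not come from the full-length transcript. The RefSeq transcript alone had 15.9 FPKM in knockout cells and 33.6 FPKM in wild-type cells, a log2 ratio of -1.03. The rest of the knockout sum, 80.2% of it, was in 2 assembled models that have no counterpart in the wild-type library. One of 1494 nt had 20.2 FPKM and entered the RefSeq exons at exon 49, and the other, of 1088 nt, had 44.1 FPKM and covered only exons 57 and 58 with 141 bases outside the exons. The value of the shorter model lay outside its own bounds of 35.0 and 43.3 FPKM.

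A summed gene level counts a short 3′ model as much as a full-length one, so the level was also taken by position. The exon level adds, at each RefSeq exon base, the FPKM of every same-strand transcript or model over that base, and averages the sums over the gene. For Mtor it was 24.2 FPKM in knockout cells and 33.6 FPKM in wild-type cells, a log2 ratio of -0.46. Over the first 1000 nt of the transcript the level was 15.9 FPKM in knockout cells and 33.6 FPKM in wild-type cells, and over the last 1000 nt it was 73.9 FPKM in knockout cells and 33.6 FPKM in wild-type cells. By this measure Mtor was lower in the knockout library at the 5′ end and higher at the 3′ end. The measure spreads a single FPKM value of each transcript or model evenly over its exons, and it is not read coverage by position. The rise toward the 3′ end in the knockout library therefore follows from the 2 short models by construction. Angptl7, which lies inside the span of Mtor on the opposite strand and shares no exon base with it, was at 0.45 FPKM in knockout cells and 0.20 FPKM in wild-type cells.

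Rictor, the scaffold subunit that defines mTORC2, lies at chr15:6708381-6800400 on the plus strand, with 38 exons and 9313 nt. The summed level of Rictor was 15.5 FPKM (14.2 to 16.8) in knockout cells and 25.8 FPKM (25.0 to 26.6) in wild-type cells, a log2 ratio of -0.70. The RefSeq transcript had 4.15 FPKM in knockout cells and 25.8 FPKM in wild-type cells, a log2 ratio of -2.38. The remaining 11.3 FPKM of the knockout library belonged to 1 model of 5500 nt that began within exon 31 and ran to the RefSeq 3′ end. By exon level Rictor was at 10.9 FPKM in knockout cells and 25.8 FPKM in wild-type cells. That log2 ratio of -1.18 made it the only member past 2-fold by exon level: 1 of 10 was at least 2-fold lower, against 3.03% of genes compared, and 0 were at least 2-fold higher, against 4.98%. Rictor was below the wild-type level under each of the 14 settings compared, between -2.38 and -0.59. By the level by position it was also below along its whole length.

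Rptor, the scaffold subunit that defines mTORC1 and brings substrates to it, lies at chr11:119602995-119899591 on the plus strand, with 34 exons and 6932 nt. The summed level of Rptor was 11.4 FPKM (10.8 to 12.0) in knockout cells and 16.1 FPKM (14.8 to 17.4) in wild-type cells, a log2 ratio of -0.46. Here the assembled model was in the wild-type library, with 4.94 FPKM over 4410 nt from exon 14 onward. The RefSeq transcript had 11.4 FPKM in knockout cells and 11.1 FPKM in wild-type cells, a log2 ratio of 0.03. Over the first 1000 nt Rptor was above Rictor in the knockout library, at 11.4 FPKM for Rptor and 4.15 FPKM for Rictor. In the wild-type library the order was the other way, at 11.1 FPKM for Rptor and 25.8 FPKM for Rictor. By gene sum Rictor was above Rptor in both libraries, at 15.5 FPKM against 11.4 FPKM in knockout cells and 25.8 FPKM against 16.1 FPKM in wild-type cells. By exon level Rptor and Rictor were close in the knockout library, at 11.4 and 10.9 FPKM. In the wild-type library they were at 14.2 and 25.8 FPKM by exon level. Rptoros, on the opposite strand with 84 exon bases inside Rptor exons, was listed at 0 in both libraries.

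**Figure D2:**
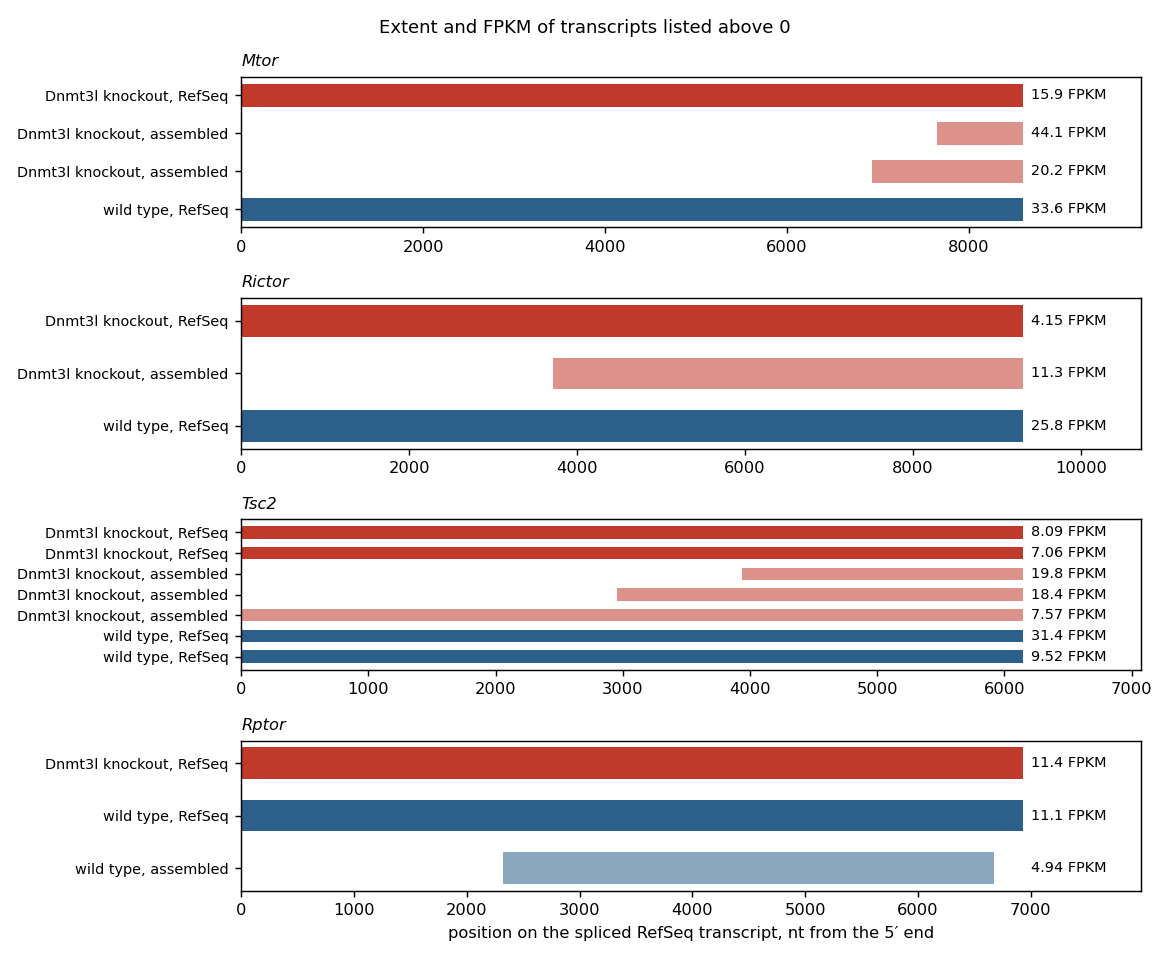
Extent of each transcript listed above 0 on the spliced RefSeq transcript (horizontal axis, nt from the 5′ end) for Mtor, Rictor, Tsc2 and Rptor, with knockout rows (red) above wild-type rows (blue) and assembled models in pale shades. FPKM is written beside each bar. In the knockout library most of the FPKM of Mtor, Rictor and Tsc2 belongs to models that begin inside the gene, and for Rptor such a model is in the wild-type library.

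The places where these models enter the RefSeq exons are shown because the rise in level along each transcript starts there. Each sequence is spliced coding sequence of the GENCODE M21 transcript on GRCm38, whose junctions match all those of the RefSeq transcript for Mtor, Rptor, Rictor and Tsc2 and 21 of 22 for Tsc1. The 30 bases before the entry point are in lower case and the 30 bases from it in capitals, 5′ to 3′ on the strand of the gene.
Mtor, 1494 nt model, codon 2271 of 2549, chr4:148545628-148546427, plus strand: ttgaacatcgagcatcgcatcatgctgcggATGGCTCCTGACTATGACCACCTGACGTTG
Mtor, 1088 nt model, codon 2510 of 2549, chr4:148553082-148556296, plus strand: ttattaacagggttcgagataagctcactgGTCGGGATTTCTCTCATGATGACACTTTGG
Rictor, 5500 nt model, codon 1232 of 1708, chr15:6786913-6786972, plus strand: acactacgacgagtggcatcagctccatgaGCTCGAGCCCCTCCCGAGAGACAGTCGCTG
Rptor, 4410 nt model, wild-type library, codon 504 of 1335, chr11:119822992-119843711, plus strand: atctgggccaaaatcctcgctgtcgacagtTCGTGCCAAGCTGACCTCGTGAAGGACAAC
Tsc2, 4338 nt model, codon 946 of 1785, chr17:24606323-24607466, minus strand: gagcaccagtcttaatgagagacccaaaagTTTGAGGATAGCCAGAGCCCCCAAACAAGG
Tsc2, 2156 nt model, codon 1272 of 1785, chr17:24600436-24602123, minus strand: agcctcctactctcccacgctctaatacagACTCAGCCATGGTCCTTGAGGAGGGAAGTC
The Rictor entry point lies within an exon and is the first base of its model. The other entry points lie at the first base of an exon. Those models begin further upstream, in bases outside the RefSeq exons, so the first capital base is not their 5′ end. A model that begins inside a gene is an assembly from the reads of 1 library. Whether it stands for an RNA with the 5′ end of the model was not tested. Of the 239 introns in the 18 models of the members, 217 are RefSeq introns of the same gene.

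Mlst8, a subunit of both complexes, lies at chr17:24473550-24479078 on the minus strand, and its longest RefSeq transcript has 3366 nt. In sum it was at 11.9 FPKM (10.4 to 13.4) in knockout cells and 15.6 FPKM (13.8 to 17.5) in wild-type cells, a log2 ratio of -0.37. It had 4 RefSeq transcripts, of which NM_019988 had 9.39 FPKM in knockout cells and 10.2 FPKM in wild-type cells. NM_001252464, which lacks 20 bases of exon 2, was listed at 0 in knockout cells and at 5.46 FPKM in wild-type cells, and the other two were at 0 in both. A knockout model of 3755 nt held a further 2.49 FPKM. All 997 exon bases of Bricd5, a gene on the opposite strand, lie inside the Mlst8 exons, and Bricd5 was at 7.92 FPKM in knockout cells and listed at 0 in wild-type cells. Since no strand-marking step is given in the protocol, the reads of this pair may not be separable. With both strands counted, the exon-level log2 ratio of Mlst8 was -0.13, against -0.37 for its own strand. That shift came from Bricd5 in the knockout library alone. The listed 0 of Bricd5 in wild-type cells and that of NM_001252464 in knockout cells can be failed estimates.

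Of the regulators of mTORC1, Tsc2 and Rheb were above 0 and Tsc1 and Ddit4 below it by gene sum, while all 4 were below 0 when RefSeq transcripts alone were summed. Tsc1, which stabilises TSC2, lies at chr2:28641243-28691167 on the plus strand, with 23 exons and 7697 nt. In sum it was at 8.13 FPKM (6.88 to 9.38) in knockout cells and 9.43 FPKM (8.22 to 10.7) in wild-type cells, a log2 ratio of -0.19 with overlapping bounds. The RefSeq transcript had 4.50 FPKM in knockout cells and 6.22 FPKM in wild-type cells. The knockout library held 3 further models over the full length, at 0.84 to 1.40 FPKM, and the wild-type library held 1 of full length at 1.40 FPKM and 1 from exon 13, at codon 421 of 1160, with 1.81 FPKM. Over the first 1000 nt Tsc1 was at 8.02 FPKM in knockout cells and 7.58 FPKM in wild-type cells.

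Tsc2, whose protein carries the GTPase-activating domain for RHEB, lies at chr17:24595937-24632629 on the minus strand, with 41 exons and 6147 nt. Its gene level was 60.9 FPKM (55.3 to 66.6) in knockout cells and 41.0 FPKM (38.5 to 43.6) in wild-type cells, a log2 ratio of 0.56, while the RefSeq transcripts alone summed to 15.2 FPKM in knockout cells and 41.0 FPKM in wild-type cells, a log2 ratio of -1.38. The knockout library had 3 models of Tsc2 and the wild-type library none. They were at 19.8 FPKM from exon 32, at 18.4 FPKM from exon 26 with 1149 bases outside the RefSeq exons, and at 7.57 FPKM over the full length. By exon level the libraries were close, at 38.9 FPKM in knockout cells and 40.8 FPKM in wild-type cells, a log2 ratio of -0.06. The first 1000 nt had 22.7 FPKM in knockout cells and 41.0 FPKM in wild-type cells, and the last 1000 nt had 60.9 FPKM in knockout cells and 41.0 FPKM in wild-type cells. As for Mtor, and by the same measure, the knockout level was the lower one at the 5′ end and the higher one at the 3′ end.

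The 2 RefSeq transcripts of Tsc2 differ by exon 26, a coding exon of 129 bases that NM_001039363 lacks, at chr17:24606224-24606352 on the minus strand from codon 946. It is shown because it separates the isoforms and is also the first RefSeq exon of the 4338 nt knockout model.
Tsc2 exon 26, GENCODE M21 on GRCm38: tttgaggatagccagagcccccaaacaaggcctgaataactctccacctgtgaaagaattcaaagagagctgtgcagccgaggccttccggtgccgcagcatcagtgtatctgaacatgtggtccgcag
The transcript with exon 26, NM_011647, had 8.09 FPKM in knockout cells and 31.4 FPKM in wild-type cells. The transcript without it had 7.06 FPKM in knockout cells and 9.52 FPKM in wild-type cells. Of the sum of these RefSeq transcripts, the one without exon 26 made up 46.6% in the knockout library and 23.2% in the wild-type library. The full-length knockout model and the one that enters the RefSeq exons at exon 26 both hold the exon. The shares of the RefSeq transcripts are therefore not shares of all Tsc2 RNA.

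Genes beside Tsc2 also differed. Nthl1, a DNA glycosylase gene whose start lies 52 bases from that of Tsc2 on the opposite strand, was at 31.3 FPKM in knockout cells and listed at 0 in wild-type cells. Among the 7775 genes at 10 FPKM or more in the knockout library, 99 had a listed value of 0 in wild-type cells, and an exact 0 of this kind can be a failed estimate. Pkd1, which overlaps the 3′ end of Tsc2 by 578 bases on the opposite strand, was at 7.92 FPKM in knockout cells and 14.1 FPKM in wild-type cells. The bases between the starts of Tsc2 and Nthl1 are shown because the pair shares them, with CpG dinucleotides, the sites that DNA methyltransferases modify, in capitals.
Tsc2-Nthl1, chr17:24632630-24632681, plus strand, RefSeq on GRCm38.p6: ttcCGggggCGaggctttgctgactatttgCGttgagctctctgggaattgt
They hold 3 CpG. Methylation was not analysed here.

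Rheb, the GTPase that activates mTORC1, lies at chr5:24802823-24842361 on the minus strand, with 8 exons and 1521 nt. Its gene level was 72.2 FPKM (60.7 to 83.7) in knockout cells and 58.0 FPKM (51.4 to 64.6) in wild-type cells, a log2 ratio of 0.31 with overlapping bounds, while the RefSeq transcript alone had 8.66 FPKM in knockout cells and 15.7 FPKM in wild-type cells, a log2 ratio of -0.79. Unlike Mtor, Rictor and Tsc2, Rheb had models in both libraries: 3 in the knockout library, at 18.5, 21.6 and 23.4 FPKM, and 1 in the wild-type library, at 42.3 FPKM. They held 88.0% of the gene level in the knockout library and 73.0% in the wild-type library. On the genome all of them began upstream of the RefSeq start, by 78 to 251 bases in the knockout library and 211 bases in the wild-type library. Only the knockout model at 23.4 FPKM covered RefSeq exon 1. The other knockout models and the wild-type model covered 7 of the 8 RefSeq exons, from exon 2 onward, and had other bases before it. The 3′ ends of all models lay 574 bases short of the RefSeq end in the knockout library and 577 bases short in the wild-type library. In both libraries most of the Rheb FPKM was thus given to assembled models shorter than the RefSeq transcript. Whether these stand for RNAs with the ends of the models was not tested.

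Ddit4, the inhibitor of mTORC1 signalling, lies at chr10:59949675-59951770 on the minus strand, with 3 exons and 1685 nt. It was at 34.3 FPKM (31.7 to 36.9) in knockout cells and 34.7 FPKM (31.9 to 37.4) in wild-type cells, a log2 ratio of -0.02, and had no assembled model in either library. Zbtb16, the gene of PLZF, was at 27.9 FPKM in knockout cells and 55.4 FPKM in wild-type cells, a log2 ratio of -0.97 on gene level and of -1.33 by exon level. Ddit4 thus had nearly the same level in the libraries while Zbtb16 was lower in the knockout library.

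Rps6kb1, which encodes the S6 kinase that phosphorylates ribosomal protein S6, lies at chr11:86499011-86544807 on the minus strand, with 15 exons and 5393 nt. It was at 7.31 FPKM (6.41 to 8.25) in knockout cells and 10.3 FPKM (9.58 to 11.2) in wild-type cells, a log2 ratio of -0.45. Its long RefSeq transcript had 5.62 FPKM in knockout cells and 10.3 FPKM in wild-type cells, and the shorter one, NM_028259, was listed at 0 in both. A single-exon knockout model of 4910 nt over the last exon, with 958 bases outside the RefSeq exons, held 1.69 FPKM. Tubd1, which starts 183 bases away on the opposite strand, was at 6.90 FPKM in knockout cells and 4.79 FPKM in wild-type cells. The bases between the pair are shown in the same way and hold 16 CpG.
Rps6kb1-Tubd1, chr11:86544808-86544990, plus strand, RefSeq on GRCm38.p6: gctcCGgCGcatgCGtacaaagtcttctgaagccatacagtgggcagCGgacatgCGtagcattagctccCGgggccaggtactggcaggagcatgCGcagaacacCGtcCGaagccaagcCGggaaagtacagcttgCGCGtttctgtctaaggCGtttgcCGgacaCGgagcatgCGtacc
Rnft1, whose 3′ end lies 3 bases from that of Rps6kb1 on the opposite strand, was at 17.5 FPKM in knockout cells and 25.5 FPKM in wild-type cells. A Rnft1 model of the wild-type library covered 5 exon bases of Rps6kb1.

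Eif4ebp1, which encodes the translation repressor 4E-BP1 that mTORC1 inactivates, lies at chr8:27260327-27275656 on the plus strand, with 3 exons and 981 nt. It was at 75.8 FPKM (70.4 to 81.2) in knockout cells and 64.4 FPKM (59.5 to 69.5) in wild-type cells, with no assembled model in either. Its log2 ratio of 0.23 was close to the median over all genes compared, and became -0.07 when libraries were scaled to their total without the 50 most abundant genes.

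By the level by position, which is built from transcripts and models and not from read coverage, several members with long transcripts differed along their length. The gene sums do not show this. Counting RefSeq transcripts alone, 8 members were below 0 and 2, Rptor and Eif4ebp1, above it, and 3 of 10 (Mtor, Rictor and Tsc2) were at least 2-fold lower in the knockout library, against 10.1% of genes compared. The median over the members was -0.73, against 0.11 over all genes compared. Of the 7 members of 2000 nt or more, 2 (Mtor and Rictor) were at least 2-fold lower over the first 1000 nt, against 9.2% of the 9347 genes of that length. Over the last 1000 nt, 1 of 7 (Mtor) was at least 2-fold higher, against 5.18%. The median log2 ratio of these 7 members was -0.78 over the first 1000 nt and -0.35 over the last 1000 nt, against -0.08 and 0.11 over the genes of that length. A model beginning at least 1000 nt inside the transcript was found for 4 of 7 members in the knockout library (Mtor, Rictor, Tsc2 and Rps6kb1), against 23.4% of genes of that length. In the wild-type library it was found for 2 of 7 (Rptor and Tsc1), against 13.4%.

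**Figure D3:**
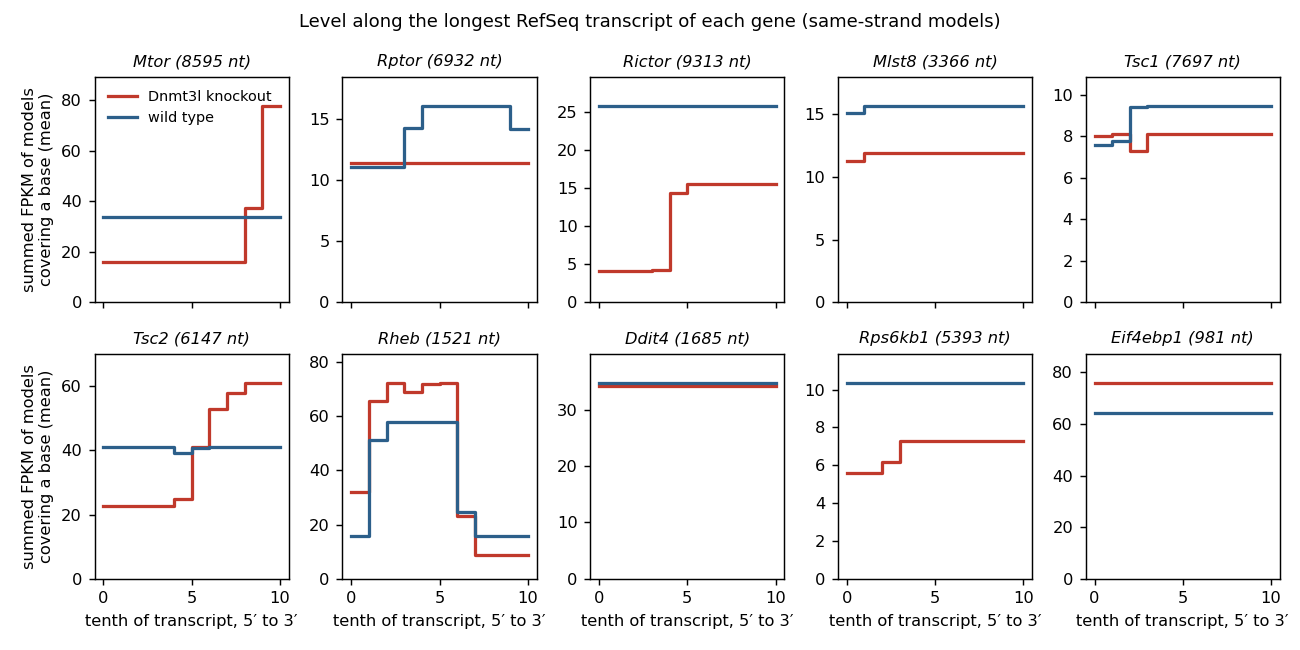
Summed FPKM of same-strand models covering a base, averaged in 10 equal windows along the longest RefSeq transcript from 5′ to 3′ (horizontal axis), for the knockout library (red) and the wild-type library (blue), with a separate vertical scale from 0 for each gene. Mtor and Tsc2 cross from below to above the wild-type line toward the 3′ end, and Rictor stays below it. A line is flat by construction where a single transcript is listed, as for Ddit4 and Eif4ebp1 in both libraries and for Mtor and Rictor in the wild-type library.

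By the level by position, long transcripts in general were lower in the knockout library at their 5′ end. Among the 2218 genes compared of 5000 nt or more, the median log2 ratio was -0.48 over the first 1000 nt and -0.10 over the last 1000 nt. In that group 22.2% were at least 2-fold lower over the first 1000 nt, 37.6% had an internal-start model in the knockout library and 22.1% had one in the wild-type library. Mtor, Rptor, Rictor, Tsc1, Tsc2 and Rps6kb1 are all of that length. The part of transcript length in the values of Mtor, Rictor and Tsc2 was not tested. Library depth is unknown, as the files hold no read counts, and the median coverage that corresponded to 1 FPKM was 3.45 in the knockout library and 3.13 in the wild-type library.

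**Figure D4:**
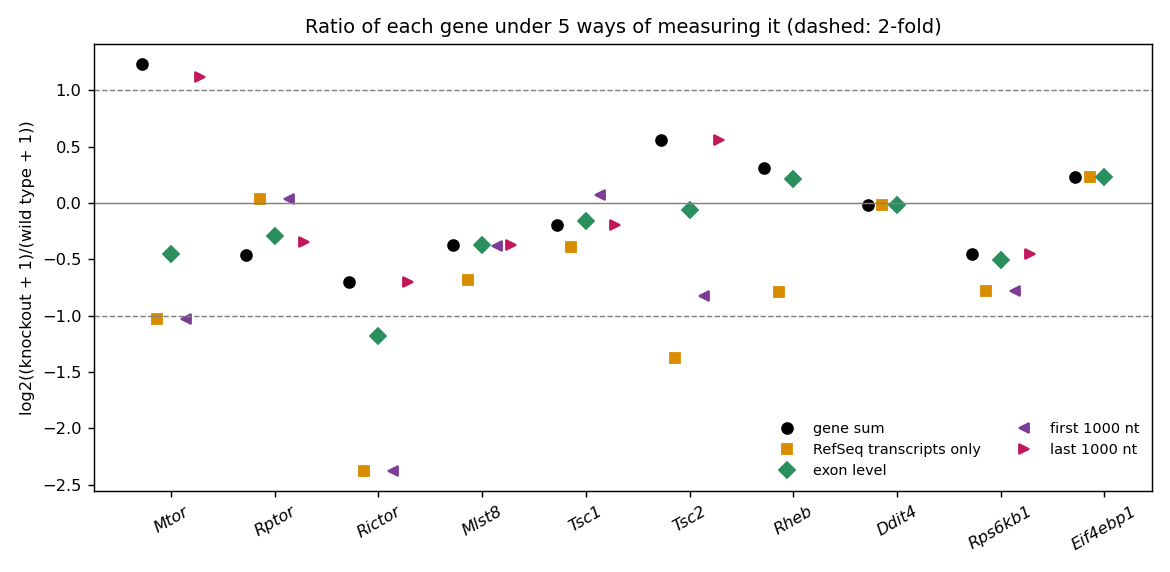
log2((knockout + 1)/(wild type + 1)) of each member (vertical axis) measured as the gene sum, from RefSeq transcripts only, as exon level, and over the first and last 1000 nt for members of 2000 nt or more, with dashed lines at 2-fold. The measures of Mtor run from 1.23 to -1.03 and those of Rictor from -0.70 to -2.38. Those of Ddit4 and Eif4ebp1 can only coincide, since each has 1 RefSeq transcript and no assembled model.

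Relative to the median log2 ratio of 0.21 over genes at 1 FPKM or more in both libraries, the gene-sum ratios were 1.03 for Mtor, 0.36 for Tsc2, 0.11 for Rheb and 0.03 for Eif4ebp1. The others lay at -0.22 for Ddit4, -0.40 for Tsc1, -0.57 for Mlst8, -0.65 for Rps6kb1, -0.66 for Rptor and -0.90 for Rictor. On this scale the same 4 members were above 0.

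CpG density of the promoters was counted because DNMT3L acts in CpG methylation. A promoter window of 300 bases, 250 before to 50 after the start that the RefSeq table gives, was found for 9 of the 10 members, Eif4ebp1 being the other. For Rptor that window ends before the transcript start in the deposited files. The dinucleotide CG, which reads the same on both strands, was counted 13 to 47 times per window, with a median of 21, against a median of 20 and quartiles of 12 and 28 over 11021 genes compared, and 5 of 9 members lay above that median. The highest counts were 47 for Rictor and 47 for Rheb, and the lowest was 13 for Rptor.

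The medians of 4 lists of other pathway genes lay between 0.16 and 0.30, against 0.22 over all genes compared. Differences past 2-fold are counted on the log2(FPKM + 1) scale, by which 7.66% of all genes compared were higher and 3.49% lower, and which understates the change of low genes. Of 8 other subunits and assembly factors of the complexes, 1 was at least 2-fold higher and 0 at least 2-fold lower, with a median log2 ratio of 0.25. The gene past 2-fold was Akt1s1, encoding PRAS40, an inhibitory subunit of mTORC1, which was at 30.9 FPKM in knockout cells and listed at 0 in wild-type cells. That value of 0 can be a failed estimate. The other 7 were within 2-fold on this scale, although Deptor, a gene of an inhibitory subunit, was at 0.47 FPKM in knockout cells and 1.91 FPKM in wild-type cells, past 2-fold as a plain ratio.

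Of 28 genes of amino acid sensing, which bring mTORC1 to the lysosome, 16 were above 0, 12 below it and 0 past 2-fold on this scale, with a median of 0.30. As a plain ratio of FPKM, only Fnip1 was past 2-fold, and the share of all genes compared was not counted for plain ratios. The largest differences were in Fnip1, at 1.81 FPKM in knockout cells and 4.53 FPKM in wild-type cells, and in Fnip2, at 7.89 FPKM in knockout cells and 15.8 FPKM in wild-type cells. Both encode partners of folliculin. Wdr24, a GATOR2 subunit gene, was at 20.8 FPKM in knockout cells and 11.2 FPKM in wild-type cells, a log2 ratio of 0.84 that was 0.14 by exon level.

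Of 21 genes of the PI3K, AKT and AMPK inputs, 13 were above 0, 8 below it and 0 past 2-fold on this scale, with a median of 0.19. As a plain ratio, again without a share over all genes, only Pdpk1 was past 2-fold. Pdpk1, the kinase gene upstream of AKT and S6 kinase, was at 4.79 FPKM in knockout cells and 9.68 FPKM in wild-type cells. Tbc1d7, the gene of the third subunit of the TSC complex, was at 30.4 FPKM in knockout cells and 16.2 FPKM in wild-type cells. Ddit4l, a paralog of Ddit4, was at 11.0 FPKM in knockout cells and 6.58 FPKM in wild-type cells.

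Of 15 effectors, 8 were above 0 and 7 below it, with a median of 0.16. Of these, 1 was at least 2-fold higher: Eif4ebp3, a paralog of Eif4ebp1, at 23.8 FPKM in knockout cells and listed at 0 in wild-type cells. By exon level, which also counts models joined to the adjoining gene Ankhd1, Eif4ebp3 was at 25.9 FPKM in knockout cells and 6.88 FPKM in wild-type cells.

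**Figure D5:**
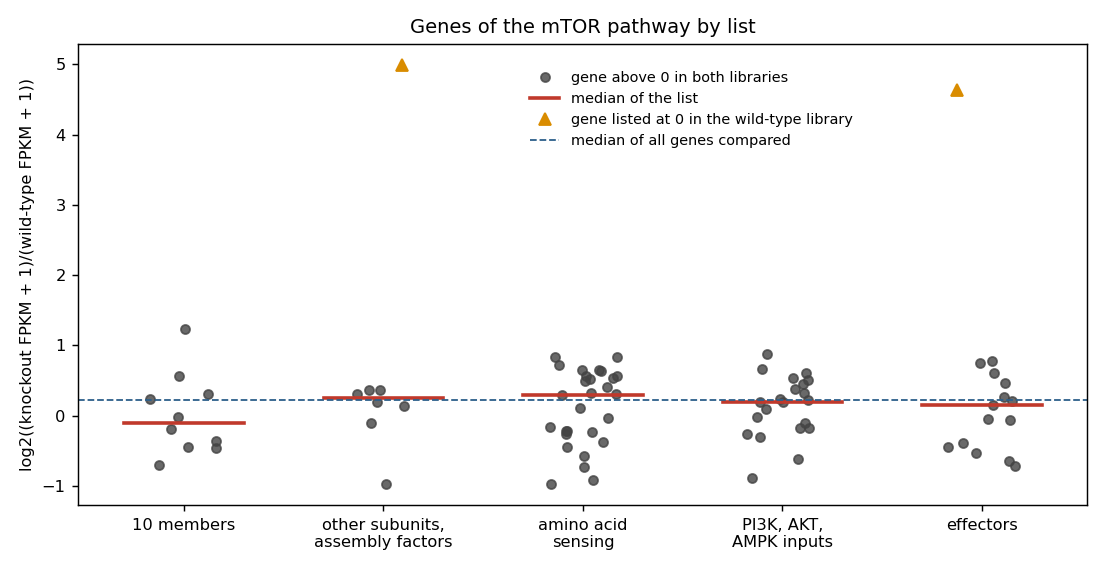
log2((knockout FPKM + 1)/(wild-type FPKM + 1)) of single genes (vertical axis) for the 10 members and the 4 other lists, with the median of each list (red) and of all genes compared (dashed blue). The list medians run from -0.10 for the members to 0.30 for amino acid sensing, against 0.22 for all genes, and the triangles are Akt1s1 and Eif4ebp3, listed at 0 in the wild-type library.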

How the data were processed

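Poly(A) RNA was fragmented, copied with random primers and sequenced from both ends on a HiScanSQ, per the labels' protocols. The submitters' processing notes name the build mm10 and, with no settings, CASAVA 1.9, TopHat2 2.0.8 and Cufflinks 2.1.1. The deposited files give, per transcript, an FPKM value with bounds and a coverage, all made by the authors and taken unchanged. A score that the deposited files also hold stayed unused. Each file lists 30073 RefSeq transcripts and the models assembled in that library.

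RefSeq identifiers were named by accession for 28942 of 30079, by gene names in the files for 296 and by exon overlap with GENCODE M21 for 790, and 51 had no name. Models without a strand joined a gene when their share of bases in its exons was 0.5 or more. The pseudocount was 1 and the minimum 1 FPKM in 1 library. Python 3.11.15, numpy 2.4.6 and pandas 2.3.3 were used, and the computation was tested on simulated data. No count model and no test between genotypes could be run.

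The members and lists were chosen with earlier results of these data known. Named genes were the members, the genes of each list past 2-fold or otherwise the 3 with the largest difference, neighbours that overlap a member or share a model with it, Zbtb16 and Dnmt3l. Nthl1, Tubd1 and Deptor were added after their values were seen.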

Additional observations from a re-analysis of the deposited data

How the results depend on the processing

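The median log2 ratio of the members, -0.10, stayed within -0.39 and -0.02 under 11 of 13 alternatives (pseudocount, filter, scaling, coverage, model length, exon level). It was -0.73 with RefSeq transcripts only and -0.58 with the most abundant RefSeq transcript of each gene. The count of members at least 2-fold higher, 1, became 0 under these settings, under the exon level of either kind and under scaling by a total that leaves out the 50 most abundant genes. The count at least 2-fold lower, 0, became 3 with RefSeq transcripts only or the most abundant one. It became 1 with the exon level on the same or either strand, and 1 at 1.5-fold. Of all genes compared, 10.1% were at least 2-fold lower with RefSeq transcripts only and 3.03% with the exon level on the same strand. For the most abundant RefSeq transcript, the exon level on either strand and 1.5-fold, no share of all genes was counted. Mtor changed sign to -1.03 with RefSeq transcripts only and with the most abundant one, and to -0.46 by exon level on the same or either strand. These settings remove or down-weight the assembled models by construction. The members Ddit4, Mlst8, Rictor, Rps6kb1 and Tsc1 were below 0 in every setting in which they were compared (a filter of 10 FPKM removes Tsc1). Of these, Ddit4 and Tsc1 had bounds that overlapped between the libraries. Ddit4 lay between -0.31 and -0.01. It has 1 RefSeq transcript and no assembled model, so settings that choose among transcripts cannot change its value of -0.02. No paired analysis was possible because each genotype has 1 library. Leaving out a library was not possible for the same reason. The unknown depth sets no floor for genes listed at 0.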
